A study of Mus musculus with 6 samples.

Results

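The 10 genes described here, Calcr, Cdh15, Chodl, Ncam1, Vcam1, Itga7, Cxcr4, Megf10, Sdc3 and Sdc4, encode proteins on the surface of satellite cells, the muscle stem cells of skeletal muscle. They were found by gene symbol in the platform annotation, which names 25 of the 45281 probes for them. The 10 genes are 10 of 19057 genes with a probe named for 1 gene, and each had a probe bright enough to be tested, as had 11262 genes in all. Of the 25 probes, 22 passed the filter on dim probes (a detection p, the proportion of negative controls with a higher reading, below 0.05 for 3 or more arrays).

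Expression was measured on 6 arrays, 3 with pools of sorted satellite cells from pharyngeal muscle and 3 with pools from limb muscle, the gastrocnemius and quadriceps. Both groups came from male C57BL/6 mice of 8 to 10 weeks, and no allele or treatment is given for either. Each pool held 150000 to 200000 cells from 10 to 30 mice, so that no value belongs to a single animal. No source used here names the markers of the sort, so that it is not known which of the 10 surface proteins, if any, served as a gate. The comparison asked how satellite cells of the pharynx differ from those of the limb.

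A satellite cell lies between the muscle fibre and the basement membrane around it, and its surface proteins hold it in that niche and let it receive signals. M-cadherin (Cdh15) and Ncam1 attach cells to cells, integrin alpha 7 (Itga7) attaches them to laminin, the calcitonin receptor (Calcr) and the chemokine receptor Cxcr4 signal through G proteins, and the syndecans Sdc3 and Sdc4 carry heparan sulfate chains that bind growth factors. Several of these proteins are used to sort satellite cells, although Vcam1, Cxcr4, Itga7 and the syndecans are also made by other cells of muscle.

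Between 20919 and 22793 probes per array had a detection p under 0.05, and the log2 values of the limb pools correlated across genes at 0.959 to 0.968, those of the pharyngeal pools at 0.886 to 0.915, and pools of different groups at 0.858 to 0.885. The satellite cell transcription factor Pax7 was detected on all 6 arrays, at 6.01, 6.03 and 4.95 in pharyngeal pools 1 to 3 and 7.67, 7.99 and 8.14 in limb pools 1 to 3 (normalized intensity, log2). All arrays lay on 1 chip with the groups on neighbouring positions, so that position and group cannot be told apart.

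The surface markers were lower in the pharyngeal pools or did not pass the test, and none was called higher. Of the 10 genes, 4 fell (Calcr, Cdh15, Chodl and Ncam1) at an adjusted p under 0.05, against 1.61% of all genes tested that were called lower and 3.32% called in either direction (limma, Benjamini-Hochberg over 11262 genes). None rose, against 1.71% of all genes, and none was higher at an unadjusted p under 0.05 (limma). The median difference of the 10 genes was -1.53 on the log2 scale, pharyngeal minus limb, beside -0.06 over all genes tested. Every pharyngeal pool lay below every limb pool for 8 of the 10 genes, as for 15% of all genes, where 26.7% had groups apart in either direction; the exceptions were Sdc3 and Sdc4. Without limb pool 1, 2 or 3, 3, 1 and 2 of the genes were called lower, and without pharyngeal pool 2, 5 were. Chodl was called in each of these fits. In pools of cells, fewer cells of a type and less RNA per cell cannot be told apart. The 10 genes were chosen with earlier results of these data known, which limits what their share against all genes can show.

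**Figure D1:**
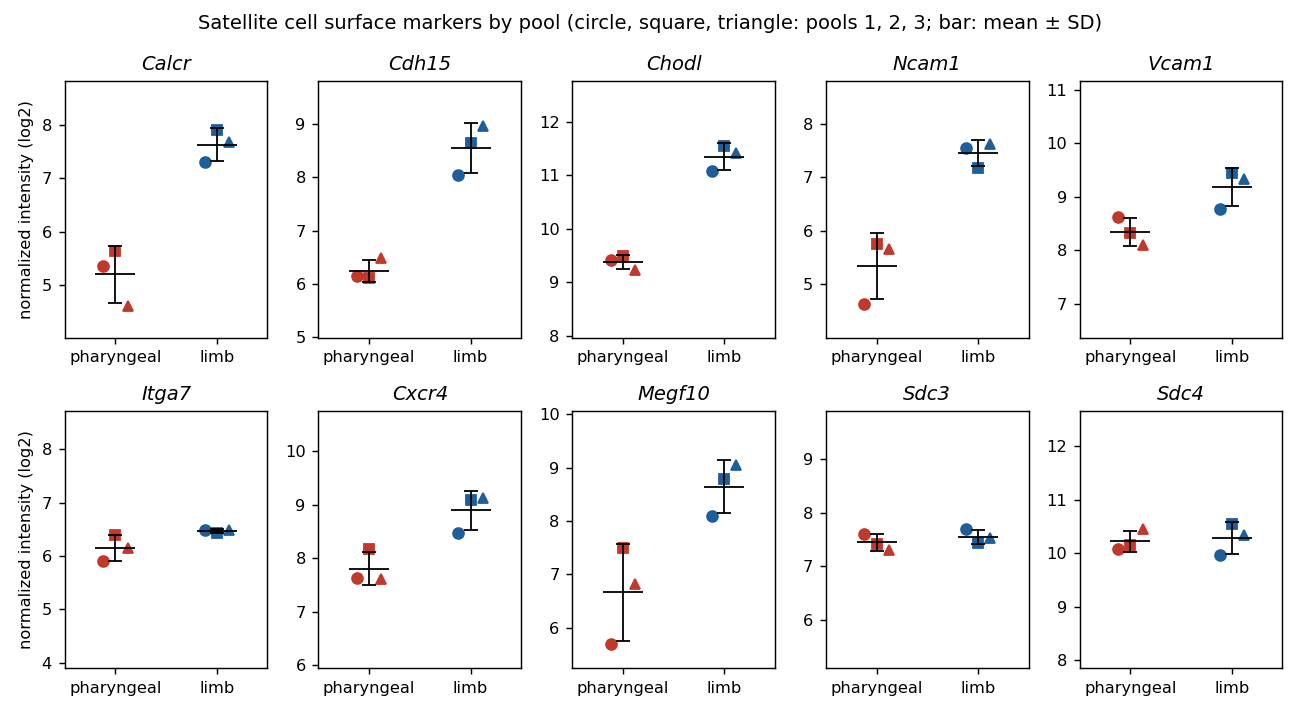
Normalized intensity (log2) of the brightest probe of each of the 10 genes, by pool; each panel spans the same range of log2 units. Red marks are pharyngeal and blue marks limb pools, and bars give the mean and SD (n = 3); the groups are apart for 8 genes, by -2.43 for Calcr, and overlap for Sdc3 and Sdc4.

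Markers of some other cells moved with the groups, and those of others gave no call. Of 17 tested epithelial genes 8 rose and none fell, led by Krt14 and Krt5 (differences of 5.52 and 5.06) and Krt13 (at least 21.9-fold higher, with no limb array above background), and the summed normalized intensity of the 17 genes was 3372 to 11410 in pharyngeal and 792.3 to 1033 in limb pools. Of 4 tested thyroid and parathyroid genes 3 rose, with sums of 1180 to 3282 in pharyngeal pools. None of the 4 was above background on a limb array, so that the limb sums of 78.1 to 80.1 are background and the offset. All 4 thus passed the filter only through the pharyngeal arrays, where they were high, and their count is no separate support. The same holds for Krt4, Krt13 and Krt15 among the epithelial calls. Krt5, Krt8 and Esrp1 were above background on 1 limb array each, too few to pass the filter without the pharyngeal arrays. Their calls are no separate support either. Of 7 tenocyte genes 5 fell, led by Kera, Fmod and Comp (-3.51, -3.32 and -2.69), with sums of 509.1 to 523.3 in pharyngeal and 1941 to 3934 in limb pools. Of these 5, Kera and Chad were above background on 2 pharyngeal arrays each, too few to pass the filter without the limb arrays. Myofibre genes, 11 in number, gave 2 calls higher and 1 lower. Over all genes tested, 1.71% were called higher and 1.61% lower. These lists were chosen with earlier results of these data known.

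No call (limma) was made among endothelial (11 genes tested), haematopoietic (6), fibro-adipogenic (10), pericyte and smooth muscle (12) and Schwann and neural genes (8), with 0, 1, 0, 1 and 0 higher and 3, 0, 1, 2 and 2 lower at an unadjusted p under 0.05. Sums of the haematopoietic genes were 525.4 to 1189 in pharyngeal and 262.1 to 454.1 in limb pools, without overlap. Lyz2 was the brightest of these genes on every array (log2 means 9.15 in pharyngeal and 7.33 in limb pools). The other haematopoietic genes overlapped between groups. Sums of the fibro-adipogenic genes were 4816 to 6043 and 6046 to 7958, also without overlap, and of the endothelial genes 1153 to 1548 and 1295 to 1426. The sums were 11240 to 12960 and 11540 to 11830 for pericyte and smooth muscle genes, and 1180 to 1676 and 1536 to 1621 for Schwann and neural genes. Above background on no array were Dsg3 of the epithelial list, Foxe1 of the thyroid list, Itgam and Cd3e of the haematopoietic list, and Snap25 and Syt1 of the neural list. The part of other cells in the levels of the 10 genes was not tested.

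Among the adhesion molecules, M-cadherin and Ncam1 fell, while Vcam1 and Itga7 did not pass. Cdh15, the cadherin that joins satellite cells to the fibre, read 6.15, 6.12 and 6.49 in pharyngeal pools 1 to 3 and 8.03, 8.63 and 8.95 in limb pools 1 to 3 (log2). The lowest limb pool stood well above the highest pharyngeal pool. The difference of -2.29 (SE 0.28, limma adjusted p = 0.00799) corresponds to a level 4.89-fold lower in the pharyngeal pools, and was -1.56 with no background correction. Without limb pool 2, Cdh15 did not pass (adjusted p = 0.0624).

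Ncam1, an immunoglobulin-family molecule that binds its like on neighbouring cells, read 4.64, 5.75 and 5.66 in pharyngeal pools and 7.55, 7.18 and 7.63 in limb pools on its brightest probe (log2). Pharyngeal pool 1 stood lowest, and its detection p of 0.0566 missed the limit. The difference was -2.10 (SE 0.33, limma adjusted p = 0.0185, 4.30-fold lower). It was smaller, though still past the threshold, with an offset of 50 (-1.46) and with no background correction or in the processed table (-1.09). As the mean over kept probes it was -1.04, also past the threshold. With detection on all 6 arrays required, the brightest probe dropped out, and ILMN_2722864, described below, stood for the gene (-1.25). The gene did not pass without limb pool 1, 2 or 3, where its difference was -2.08, -2.24 and -2.02 (adjusted p = 0.0943, 0.0792 and 0.109). It did not pass with no filter on dim probes either, where more genes were tested (adjusted p = 0.0588).

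The probes of Ncam1 did not give 1 answer. Besides the brightest probe (ILMN_1237421), ILMN_2722864 was called lower, with log2 means of 5.63 ± 0.13 for the pharyngeal and 6.88 ± 0.06 for the limb group (SD, n = 3; difference -1.25, limma adjusted p = 0.0180 over all probes). ILMN_3102825 read lower in each pharyngeal pool without passing (-0.82, adjusted p = 0.145). ILMN_1254093, which is annotated to a cDNA clone record and not to a RefSeq transcript, was above background on all 6 arrays and read 5.60 ± 0.27 against 5.59 ± 0.02 (difference 0.00, 95% interval -0.48 to 0.49). The log2 ratio of the brightest probe to ILMN_1254093 was lower by 2.11 in the pharyngeal pools, with groups apart (exact permutation test, p = 0.1, the smallest that 3 against 3 arrays allow).

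Vcam1, the ligand of integrin alpha 4 beta 1 and a common sorting marker, read 8.62, 8.31 and 8.10 in pharyngeal pools and 8.78, 9.44 and 9.34 in limb pools (log2). Pharyngeal pool 1 and limb pool 1 lay close to each other, and the difference of -0.84 (95% interval -1.43 to -0.25) did not pass over all genes (limma adjusted p = 0.123). Its other probes gave -0.37 (ILMN_1232768) and 0.44 (ILMN_2552295), neither past the threshold, and ILMN_1241993 was above background on 2 arrays and was not tested.

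Itga7, the laminin-binding integrin subunit of muscle, read 5.91, 6.39 and 6.15 in pharyngeal pools and 6.48, 6.43 and 6.49 in limb pools (log2). The highest pharyngeal pool lay just below the limb pools. The difference was -0.32 (95% interval -0.78 to 0.15, limma adjusted p = 0.426), an interval that does not hold a change of the size seen for Cdh15. A second probe, ILMN_2451942, was above background on 1 array and was not tested.

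Among the receptors, Calcr fell, Megf10 was called through 1 of its probes, and Cxcr4 did not pass. Calcr, which in mice keeps satellite cells quiescent, read 5.36, 5.64 and 4.61 in pharyngeal pools and 7.31, 7.91 and 7.67 in limb pools (log2). Pharyngeal pool 3 was nearest to background, with a deposited intensity of 102.6 and a detection p of 0.0299, where the limb pools had intensities of 203.6, 323.5 and 267.1. The difference was -2.43 (SE 0.31, limma adjusted p = 0.0098, 5.37-fold lower). Its size depends on the background step: it was -1.70 with an offset of 50 and -1.27 with no background correction or in the processed table, where Chodl (-1.86), Cdh15 (-1.56) and Megf10 (-1.37) had larger differences. Without limb pool 2 or 3 it did not pass (adjusted p = 0.0649 and 0.0638).

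The dimmer probes of Calcr had smaller differences. ILMN_3120532 differed by -1.54 (limma adjusted p = 0.0157 over probes) and was detected on 2 of the 3 pharyngeal arrays, and ILMN_3045078 differed by -0.97 without passing (adjusted p = 0.214) and was above background on 1. Of the 3 probes ILMN_3045078 was the only one whose groups overlapped. The offset of the background model draws dim values together, which understates differences near background.

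Cxcr4, the receptor for the chemokine Cxcl12, read 7.64, 8.17 and 7.61 in pharyngeal pools and 8.47, 9.09 and 9.14 in limb pools (log2). The groups did not overlap, with pharyngeal pool 2 and limb pool 1 closest. The difference of -1.09 (95% interval -1.71 to -0.46) missed the threshold (limma adjusted p = 0.0772), and passed with a variance that depends on intensity (adjusted p = 0.0285).

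Megf10, a transmembrane protein with EGF repeats that acts in engulfment and in myoblast growth, was the most variable of the 10 genes among the pharyngeal pools. Its brightest probe, ILMN_2840286, read 5.70, 7.49 and 6.81 in pharyngeal pools (SD 0.91) and 8.09, 8.78 and 9.05 in limb pools (SD 0.50). The groups did not overlap, and the difference of -1.97 (SE 0.47) did not pass (limma adjusted p = 0.0717). ILMN_2689931, nearly as bright, read 6.47, 6.98 and 6.26 against 7.92, 8.10 and 8.67 and was called lower (-1.66, SE 0.28, adjusted p = 0.0289 over probes). The brightest probe was called as well without pharyngeal pool 2 (-2.38, adjusted p = 0.0425), with a variance that depends on intensity (0.0281) and with array weights (0.0413). Its difference was smaller with no background correction (-1.37) and as the mean over probes (-1.04), and passed in neither.

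The other probes of Megf10 were dim and overlapped between groups. ILMN_2531292 had a deposited intensity of 214.8 in pharyngeal pool 1, against 101.8 and 89.5 in pharyngeal pools 2 and 3 and 108.0 to 131.1 in the limb pools. Pharyngeal pool 1 was thus the highest of the 6 arrays on that probe and the lowest on the brightest probe. The fitted differences were -0.32 for ILMN_2531292 and -0.20 for ILMN_1214887 (adjusted p = 0.831 and 0.810).

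Chodl, chondrolectin, a membrane protein with a C-type lectin domain, had the smallest adjusted p of the 10 genes. It read 9.41, 9.49 and 9.23 in pharyngeal pools and 11.07, 11.56 and 11.43 in limb pools (log2). Spread within each group was small beside the gap, and the difference was -1.98 (SE 0.21, limma adjusted p = 0.0045, 3.94-fold lower). The deposited intensities behind it were 834.5, 843.0 and 645.0 in pharyngeal pools and 2028.5, 3325.5 and 2897.8 in limb pools.

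All 3 probes of Chodl were called lower. ILMN_1242717 passed the filter only through the limb arrays, where it was higher, so that its call is no separate support. ILMN_2586614 gave the largest difference of any probe of the 10 genes, -3.23 (SE 0.26, limma adjusted p = 0.00258 over probes), with 8.35, 8.16 and 8.11 in limb pools and 4.64, 5.46 and 4.82 in pharyngeal pools, of which pool 1 was not above background. ILMN_1242717 was detected on all limb arrays but on no pharyngeal array, and its limb level was at least 2.72-fold higher (adjusted p = 0.0103), where the bound sets the limb mean against the lowest value that counts as detected. Both of these probes are annotated to cDNA clone records and not to a RefSeq transcript. The fall on ILMN_2586614 exceeded that on the brightest probe by 1.25, with groups apart (exact permutation test, p = 0.1, the smallest possible).

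The syndecans did not pass the test, and their values overlapped. Sdc4 read 10.09, 10.15 and 10.45 in pharyngeal pools and 9.96, 10.55 and 10.35 in limb pools (log2). Sdc3 read 7.61, 7.42 and 7.31 in pharyngeal pools and 7.69, 7.44 and 7.52 in limb pools. The groups overlapped for both genes. The differences were -0.06 for Sdc4 (95% interval -0.60 to 0.47, limma adjusted p = 0.913) and -0.11 for Sdc3 (95% interval -0.55 to 0.34, adjusted p = 0.804), so that a fold change of the size seen for Chodl lies outside both intervals. Their signs turned in some settings, to 0.01 and 0.07 for Sdc4 without pharyngeal pool 1 or limb pool 2 and to 0.05 for Sdc3 with median scaling. A second probe of Sdc3 was above background on no array.

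**Figure D2:**
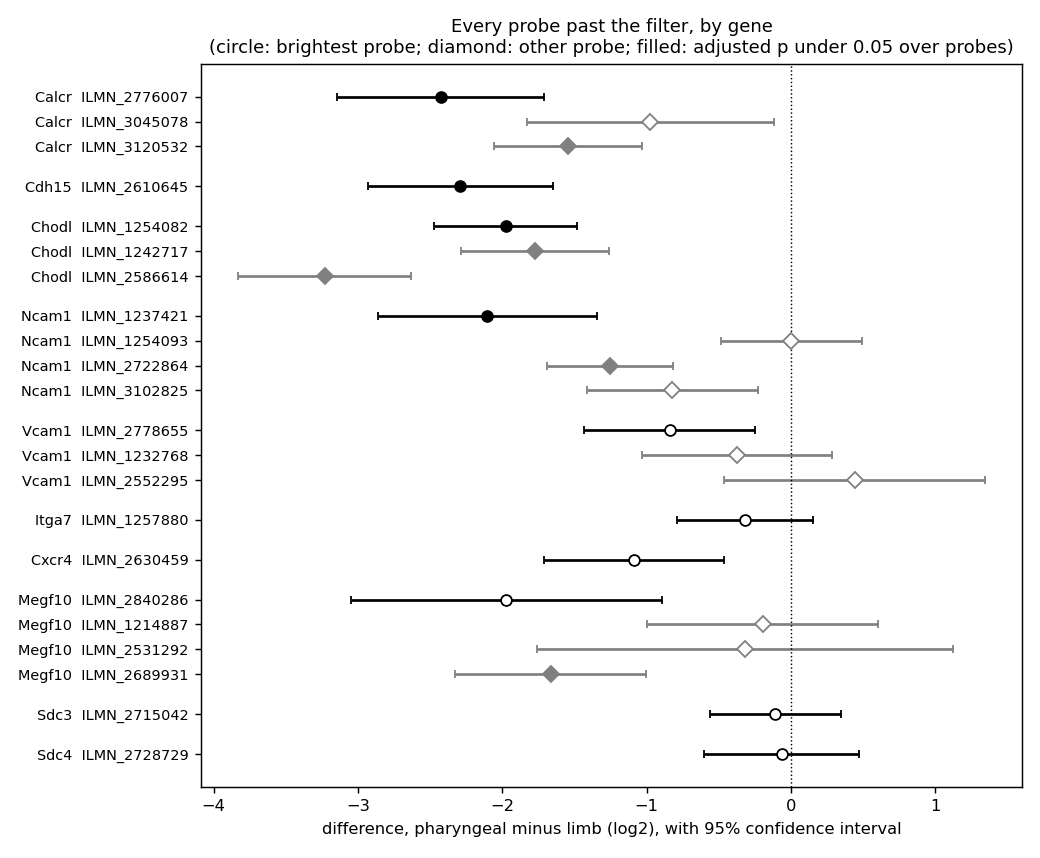
Difference, pharyngeal minus limb, on the log2 scale with its 95% confidence interval for each of the 22 probes past the filter, grouped by gene. Of the 22 probes 9 were called lower and none higher; the intervals of 8 probes span 0, those of Sdc3, Sdc4, Itga7, the Ncam1 probe ILMN_1254093 and the dimmer probes of Vcam1 and Megf10 except ILMN_2689931.

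Over the probes, 9 of 22 were called lower, against 1.26% of all 22633 probes and 2.51% called in either direction, and none was called higher. These 22 probes are not independent, since several share a gene. The 9 include ILMN_1242717 of Chodl, which passed the filter only through the limb arrays. In 8 of 12 pairs of a gene's brightest probe with another of its probes, the log2 ratio of the pair did not overlap between groups, against 16.2% of such pairs over all genes. The pairs were 2 of Calcr, 1 of Chodl, 2 of Ncam1, 1 of Vcam1 and 2 of Megf10. In 7 of these 8 pairs the brightest probe had the more negative difference. Of the other probes in them, ILMN_3120532 of Calcr and ILMN_2586614 of Chodl were called lower, and the rest were not called. Among the rest, ILMN_1254093 of Ncam1 (0.00) and ILMN_2552295 of Vcam1 (0.44) had no negative difference. Some of the other probes were near background, where the offset draws values together, so that a pair can come apart because its brightest probe differs. The 16.2% is over all genes, of which 3.32% were called, and is no like comparison. No transcript structure is given in the sources used here, and what the probes target was not tested.

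Promoters are shown for Chodl, Cdh15 and Calcr, which were called lower. No window was at hand for Ncam1, which was called lower too. RefSeq start site windows (GRCm38.p6) were used for 6 of the 10 genes, of which the 250 bases before the start are printed 5′ to 3′ for Chodl, Cdh15 and Calcr. Capitals mark E-boxes, the motif CANNTG bound by Myf5, MyoD and other basic helix-loop-helix factors, searched on both strands.
Chodl (chr16:78930698-78930947, plus strand): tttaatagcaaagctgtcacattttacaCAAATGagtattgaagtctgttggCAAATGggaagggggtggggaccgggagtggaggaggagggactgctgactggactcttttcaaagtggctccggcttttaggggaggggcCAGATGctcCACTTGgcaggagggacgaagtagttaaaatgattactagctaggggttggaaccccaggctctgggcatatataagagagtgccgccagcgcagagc
Cdh15 (chr8:122848124-122848373, plus strand): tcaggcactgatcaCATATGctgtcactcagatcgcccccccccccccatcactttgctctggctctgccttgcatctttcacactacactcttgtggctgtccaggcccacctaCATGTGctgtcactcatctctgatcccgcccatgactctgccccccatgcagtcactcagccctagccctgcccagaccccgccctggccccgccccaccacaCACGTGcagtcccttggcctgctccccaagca
Calcr window 1 (chr6:3763624-3763873, minus strand): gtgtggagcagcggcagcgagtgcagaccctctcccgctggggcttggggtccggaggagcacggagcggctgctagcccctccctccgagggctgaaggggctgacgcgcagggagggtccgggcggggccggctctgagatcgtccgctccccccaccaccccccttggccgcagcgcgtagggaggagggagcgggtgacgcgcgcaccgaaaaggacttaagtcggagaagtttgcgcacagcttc
Calcr window 2 (chr6:3764714-3764963, minus strand): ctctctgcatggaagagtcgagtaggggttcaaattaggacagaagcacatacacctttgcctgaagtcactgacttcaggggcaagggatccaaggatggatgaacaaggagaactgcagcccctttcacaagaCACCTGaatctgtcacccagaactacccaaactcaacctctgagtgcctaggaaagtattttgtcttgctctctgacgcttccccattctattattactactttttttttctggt

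The Chodl window held 4 E-boxes and the Cdh15 window 3, and of all 32851 promoter windows 3.84% held at least 4 and 12.2% at least 3. Window 2 of Calcr held 1 and window 1 none. The windows of Sdc3, Sdc4 and Cxcr4, which were not called, held none, as did 33.8% of all windows. They held 3, 4 and 3 copies of the GC box GGGCGG (either strand), which 32.7% of all windows hold at least once and which the Cdh15 window also held 3 times. None of the windows of the 6 genes held CAGCTG (13% of all windows) or the Notch effector motif GTGGGAA (5.42%). A match describes the letters of this window and no more.

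Set against Pax7 on the same arrays, the 10 genes fell into those whose ratio to Pax7 overlapped between groups and those whose ratio did not. The log2 ratio of Calcr to Pax7 was -0.46 ± 0.17 in pharyngeal and -0.30 ± 0.20 in limb pools (SD, n = 3), and that of Cdh15 was 0.59 ± 0.82 and 0.61 ± 0.23. The ratios of Chodl, Ncam1 and Megf10 differed by 0.29, 0.16 and 0.30 and overlapped too. The ratios of Cxcr4, Vcam1, Itga7, Sdc3 and Sdc4 were higher in every pharyngeal pool than in any limb pool, by 1.18, 1.43, 1.95, 2.16 and 2.20 (exact permutation test, p = 0.1 each, the smallest that 3 against 3 arrays allow). Over all other genes tested, 94.5% had a ratio to Pax7 that was higher without overlap in the pharyngeal pools, and Pax7 itself fell by 2.27 (SE 0.33, limma adjusted p = 0.0144). All ratios of a pool share its Pax7 value, which was lowest in pharyngeal pool 3. The Pax7 ratio of Myf5, the myogenic factor, differed by 0.37, with overlap.

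**Figure D3:**
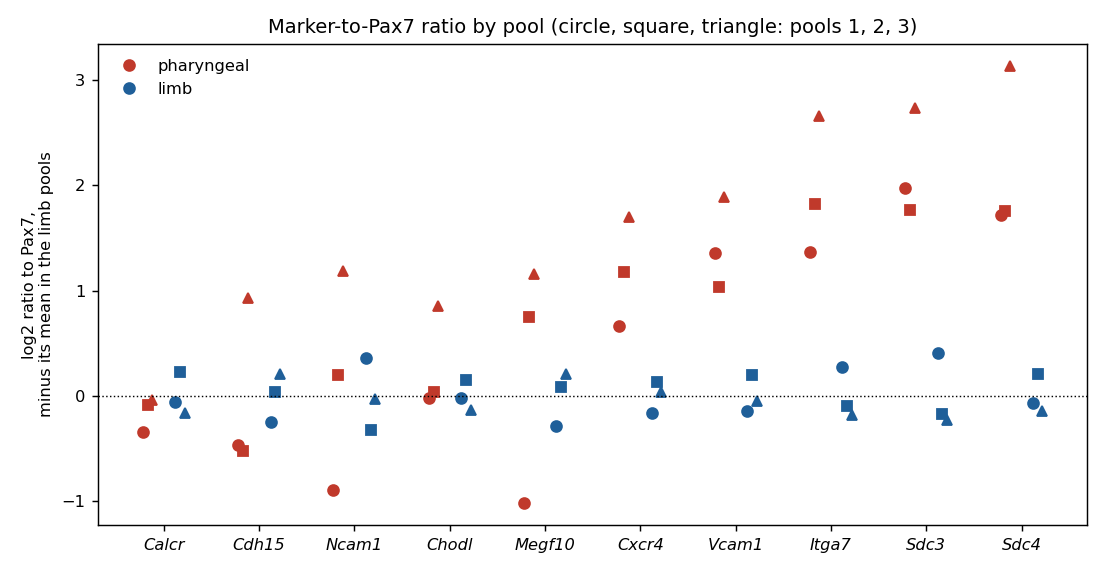
Log2 ratio of each gene to Pax7 in each pool, minus the mean ratio in the limb pools, ordered by the difference between groups. Calcr, Cdh15, Ncam1, Chodl and Megf10 overlap between pharyngeal (red) and limb (blue) pools; the other 5 genes lie higher in all pharyngeal pools, by 1.18 for Cxcr4 to 2.20 for Sdc4.

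Within a group the genes did not rank the pools alike. Limb pool 1 was the lowest limb pool for 7 of the 10 genes and limb pool 3 for none. Among the pharyngeal pools, pool 3 was lowest for 5 genes, pool 1 for 4 and pool 2 for 1, and pool 2 was highest for 6. Pharyngeal pool 1 was lowest for Ncam1 and Megf10, and pool 3 for Calcr and Chodl.

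Of 67 genes that act with the surface markers as ligands, co-receptors, cytoplasmic partners or modifying enzymes, 56 were tested, of which 1 rose and 1 fell (limma, against 1.71% and 1.61% of all genes), with a median difference of -0.09. The call that rose was Sdc1, a syndecan of epithelial and plasma cells, at 8.20, 8.14 and 7.70 in pharyngeal pools and 6.55, 7.10 and 6.14 in limb pools (log2; difference 1.41, SE 0.29, adjusted p = 0.0469). The epithelial sum was also higher in the pharyngeal than in the limb pools. Within the pharyngeal pools Sdc1 was lowest in pool 3, where that sum was highest. Which cells gave the Sdc1 signal was not tested. The call that fell was Hey1, a target of Notch signalling, at 7.80, 8.66 and 7.87 in pharyngeal pools and 9.35, 9.38 and 9.42 in limb pools (-1.27, SE 0.26, adjusted p = 0.0491). The groups did not overlap for either gene. Both calls lay at the threshold: Sdc1 passed in none of the 6 fits without 1 pool (adjusted p 0.054 to 0.177) and Hey1 in 1, that without pharyngeal pool 2.

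The cell adhesion partners gave no call in 16 genes tested (limma), and 3 higher and 2 lower at an unadjusted p under 0.05. Itgb1, the partner subunit of Itga7, differed by 0.17, and the catenins Ctnnb1 and Ctnnd1, which bind cadherins inside the cell, by -0.22 and -0.08. The signs of the catenins turned with some settings. The laminin chain Lama2 differed by -0.55 (adjusted p = 0.164), Fblim1 by 1.17, moesin (Msn) by 1.28 and Gdnf by 1.12, none past the threshold. St8sia4, which adds polysialic acid to Ncam1, differed by -0.05.

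Of 24 tested genes of receptor ligands and signalling, Hey1 was the one call. Cxcl12, the ligand of Cxcr4, read 8.82 in pharyngeal and 8.86 in limb pools (difference -0.05, adjusted p = 0.946), and its sign turned in some settings. The collagen V chains Col5a1 and Col5a3, ligands of Calcr in mice, differed by 0.13 and -0.41. The co-receptors Ramp1, Ramp2 and Ramp3, which pair with calcitonin-family receptors, differed by 0.75, -0.95 and 0.83, and Cxcl14 differed by -1.25, none past the threshold. Notch1, Notch2 and Notch3 differed by -0.24, -0.35 and 0.37, and the Notch target Heyl by -0.95 (adjusted p = 0.103).

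Of 16 tested syndecan genes and partners, Sdc1 was the one call. Sdc2 read 9.01 and 9.14 in the group means (difference -0.13, adjusted p = 0.747). Sdcbp, the adaptor syntenin that binds syndecan tails, differed by 0.78 (adjusted p = 0.076), the heparan sulfatase Sulf1 by -0.77 (adjusted p = 0.0724), the protease Adam17 by 0.70 and the Wnt receptor Fzd7 by 0.48.

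Of 24 tested satellite cell genes beyond the 10 surface markers, 8 fell and none rose (limma), against 1.61% and 1.71% of all genes. None was higher at an unadjusted p under 0.05, and the median was -0.58. This list was chosen with earlier results of these data known, so that its count is no separate support. The genes that fell were Pax7 (-2.27), the fibroblast growth factor receptor Fgfr4 (-2.20), the growth arrest gene Gas1 (-2.19), Bmp4 (-2.15), Myf5 (-1.89), Tenm4 (-1.62), the BMP antagonist Chrdl2 (-1.46) and Hey1. Hey1 is also counted among the partner genes. Fgfr4 was above background on 1 pharyngeal array, too few to pass the filter without the limb arrays, where it was high. Its difference was -1.03 with no background correction, where that of Pax7 was -1.31. Gas1 passed in each of 6 fits without 1 pool. Pax7, Fgfr4, Bmp4, Tenm4 and Chrdl2 passed in fewer than 4 of these fits and Myf5 in 4. Pax3, Myod1, Msc, Cd82 and Myog differed by -0.13, -0.38, -0.60, -1.0 and -1.37 without passing.

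**Figure D4:**
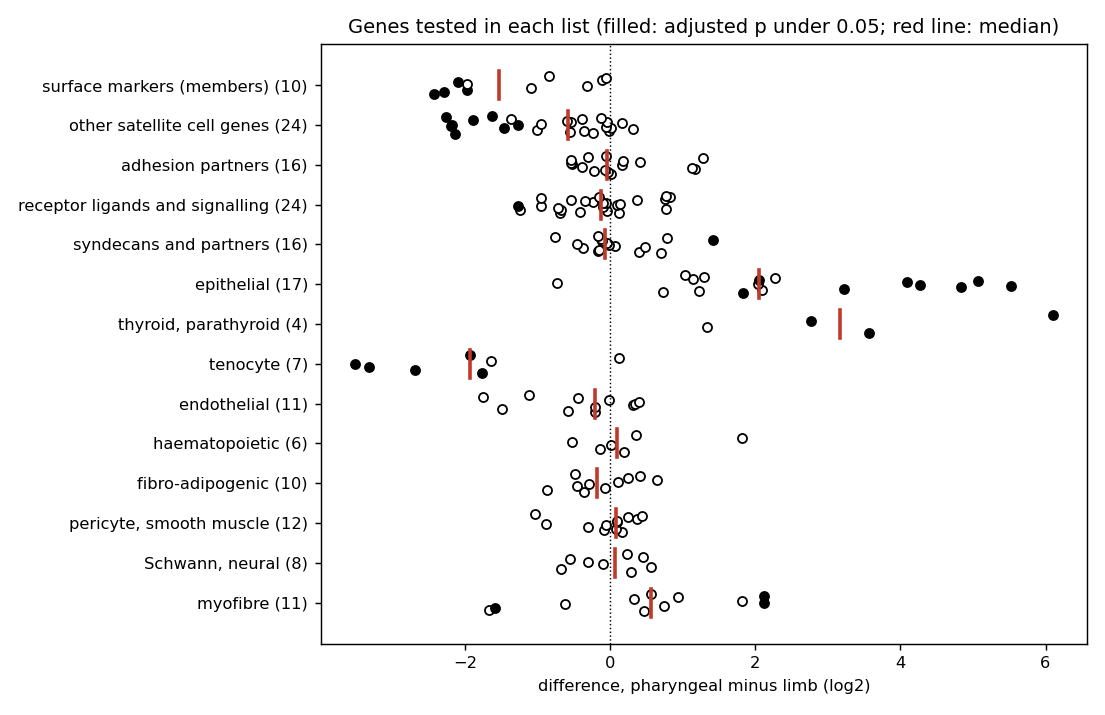
Difference, pharyngeal minus limb (log2), of each gene tested in each list, with the number tested in brackets. Filled points passed an adjusted p of 0.05 and red lines are medians, which lie at -1.53 for the surface markers, 2.05 for epithelial and -1.94 for tenocyte genes.

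The genes with the pattern most like each called marker were found by the root mean square distance between log2 values centred on their mean over the 6 arrays. This choice fixes their group difference near that of the marker, so that it is no separate result. Nearest to Calcr were Pax7 (0.17), Nppc (0.19) and Hs6st2 (0.23), and nearest to Cdh15 were Rapsn (0.12), Arrdc2 (0.19) and Maob (0.22). Chodl was nearest to Prox1 (0.14), Gas1 (0.14) and Myf5 (0.15), and Ncam1 to Pde7b (0.08), Htra3 (0.20) and Ripply3 (0.22).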

How the data were processed

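RNA of 6 pools of sorted cells was hybridized to Illumina MouseWG-6 v2.0 arrays after amplification, per the labels' protocols. The authors deposited unnormalized probe intensity values and a detection p-value per probe and array, in steps of 1 in 936, and a processed table of intensity values, which was used as an alternative. The series' design text and the submitters' processing notes name GenomeStudio 2011.1, and the design text says that probe intensities were normalized with background correction, naming no method. The processed table is linear, is not centred, and has medians of 99.5 to 99.6; the lowest unnormalized intensity of an array was 76.1 to 82.1.

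Background was removed with limma 3.58.1 (R 4.3.3) by normexp using detection p-values (offset 16), then values were quantile normalized and put on the log2 scale. A gene was represented by its brightest probe past the filter, and groups were compared with lmFit and eBayes (prior degrees of freedom 3.44, 2-sided). Probes were also fitted one by one over all 22633 past the filter. Symbols come from the platform annotation (34885 probes with 1 gene, 18 with several, 10378 unnamed here), of which 34807 matched the GRCm38.p6 gene table by Entrez identifier. Named genes are the 10 markers; calls of the partner and satellite cell lists, up to 4 others per list by size, and listed direct partners; up to 3 calls per list of other cells; and the 3 nearest genes per called marker. The members and lists were chosen with earlier results of these data known. Alternatives covered background, offset, normalization, filter, variance model, probe rule, a replicate block and leaving out each array. In 20 simulated sets of 11262 genes, of which 200 were changed, the fit recovered 17% of genes changed by 1 and 67% changed by 2 (log2). Of its calls 4.36% were false. The sets gave both groups the same spread, where the median SD in the data was 0.36 for pharyngeal and 0.22 for limb pools. These rates may thus not hold for these arrays. P-values measure the spread between pools, and 3 arrays per group limit the precision.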

Additional observations from a re-analysis of the deposited data

How the results depend on the processing

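The 4 markers called lower stayed lower in each of 19 alternatives, with differences down to -1.27 (Calcr), -1.56 (Cdh15), -1.86 (Chodl) and -1.04 (Ncam1), and no alternative called a marker higher. The count called lower was 6 with an intensity trend, 5 with array weights, 3 with no filter or a replicate block, and 1 to 5 without 1 pool; Chodl passed in all 19, Cdh15 in 18, Calcr in 17 and Ncam1 in 14. With the replicate block Ncam1 did not pass (adjusted p = 0.0603), and genes called numbered 139 (65 lower, 74 higher) in place of 374; same-numbered pools did not deviate together (correlations -0.01, -0.01 and 0.00), so that the numbers are not taken as pairs. Genes called were 593 with the trend (322 higher), 569 when probes were counted (285 lower), and 58 to 360 without 1 pool (27 to 212 lower, 31 to 148 higher). The share of calls that were lower was 48.4%, and 36.8% with median scaling, with 123 lower and 211 higher. Partner genes called were 5 with no background correction, an offset of 50 or the processed table, 8 with the trend, 4 with the mean over probes, 1 with cyclic loess, 0 with median scaling, robust variances, probes counted or the replicate block, and 0 to 1 without 1 pool.

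Signs turned only among genes not called: to 0.0537 for Sdc3, 0.0538 for Ctnnd1 and 0.0798 for Cxcl12 with median scaling, and to 0.16 for Ctnnb1 with the mean over probes. Without 1 pool, differences ranged from -0.223 to 0.0703 for Sdc4, -0.226 to 0.0054 for Ctnnd1, -0.187 to 0.21 for Cxcl12 and -0.343 to 0.31 for St8sia4. Causes of these changes were not tested. Dim probes limit what can be seen: with the offset, differences near background are understated.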
